A study of Mus musculus with 6 samples.

Results

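The 10 genes described here are standard genes of the alveolar type 1 cell: Ager, Hopx, Pdpn, Aqp5, Rtkn2, Emp2, Clic5, Akap5, Cav1 and Cav2. They were chosen by name and not by a rule on measured values, but with earlier results of these data known. Each was found among the 18238 genes of the count and FPKM tables. Their transcripts were measured by RNA-seq in 6 mice labelled lung cancer, of which 3 received artemisinin, a sesquiterpene lactone used against malaria, and 3 were labelled as the model with no treatment named. The design set the artemisinin mice against the model mice to find lung cancer genes that change with the drug. The labels used here give no tissue, strain, sex, age, tumour model, dose or duration, so what the disease label covers cannot be stated further.

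Alveolar type 1 cells are thin, flat epithelial cells that cover most of the alveolar surface and form, with the capillary endothelium beneath them, the barrier across which gas is exchanged. The other epithelial cell of the alveolus, the type 2 cell, makes surfactant and can divide and give rise to type 1 cells. In mice the type 1 programme depends on the transcription factor NKX2-1 and on YAP and TAZ, co-activators that act through the TEAD factors. Several of these genes are not confined to type 1 cells: Cav1 and Cav2 are also expressed by endothelium, adipocytes and smooth muscle, Emp2 and Clic5 also by endothelium, Pdpn also by lymphatic endothelium and basal keratinocytes, and Aqp5 also by glands.

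Promoters of 3 members are shown because Ager and Akap5 had the most similar pattern over the libraries among the members, measured from Ager, and because Hopx was the member in which the letters of an NKX2-1 core were found. Sequences are from RefSeq on GRCm38.p6, run 5′ to 3′ from 250 bases before to 50 bases after a transcription start, and are in lower case with motif matches in capitals.
Ager promoter, chr17:34597600-34597899, plus strand: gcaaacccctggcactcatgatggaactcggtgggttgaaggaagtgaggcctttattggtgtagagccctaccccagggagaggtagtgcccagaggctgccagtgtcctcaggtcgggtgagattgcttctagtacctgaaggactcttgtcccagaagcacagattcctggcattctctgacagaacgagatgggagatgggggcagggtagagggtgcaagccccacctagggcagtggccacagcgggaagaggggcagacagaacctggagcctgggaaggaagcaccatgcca
Akap5 promoter, chr12:76324641-76324940, plus strand: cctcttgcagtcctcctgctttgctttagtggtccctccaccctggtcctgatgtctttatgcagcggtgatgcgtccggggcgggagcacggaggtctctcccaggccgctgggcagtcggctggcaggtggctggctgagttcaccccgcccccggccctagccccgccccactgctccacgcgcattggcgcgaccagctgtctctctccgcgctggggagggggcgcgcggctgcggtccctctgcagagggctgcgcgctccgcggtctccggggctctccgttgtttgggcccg
Hopx promoter, chr5:77115074-77115373, minus strand: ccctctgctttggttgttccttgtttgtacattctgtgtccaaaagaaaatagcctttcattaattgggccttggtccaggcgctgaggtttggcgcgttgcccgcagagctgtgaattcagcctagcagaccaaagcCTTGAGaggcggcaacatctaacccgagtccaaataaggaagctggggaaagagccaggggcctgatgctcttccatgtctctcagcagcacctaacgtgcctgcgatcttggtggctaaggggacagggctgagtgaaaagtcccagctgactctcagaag
Promoters were held for 9 members, with 11 starts. The TEAD core GGAATG, read on both strands, occurred in 0 of the 11 windows and in 14.7% of the 32851 promoters in the table. The NKX2-1 core CTCAAG, read on both strands, occurred in 2 of the 11 windows, both of Hopx, and in 15.9% of all promoters. The match shown reads CTTGAG, the reverse complement, and lies 112 bases before the upstream Hopx start, and the other lies after another start of the gene. A match of these letters is a description and not a binding site.

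The libraries held 25566173 to 34745497 counts, and each member had between 1825 (Pdpn) and 63076 (Ager) counts in every library. Marker genes of lung epithelium and endothelium were detected throughout. Artemisinin replicate 2 stood apart by skeletal muscle and basal epithelial genes: the skeletal actin gene Acta1 had 0.923, 2643 and 0.286 normalised CPM in artemisinin replicates 1, 2 and 3, against 0 to 0.123 in the model libraries, and the basal keratin gene Krt5 had 1.92, 150.0 and 0.0286, against 0 to 0.185. Artemisinin replicate 1 stood apart by cardiac muscle and adipocyte genes: the atrial peptide gene Nppa had 164, 0.467 and 0.687 normalised CPM with artemisinin, against 0.0304 to 2.13 in the model. The median levels of the tested cardiac and adipocyte markers, relative to the mean of the model libraries, were log2 3.64 and 3.76 in that library. These medians were also raised in artemisinin replicate 3, at log2 1.74 and 2.69. Normalised CPM are counts scaled to a common library size, with TMM factors applied. Nothing in the labels says whether the mice shared a litter, a cage or a preparation day, so p-values measure the spread between these 6 libraries. In such bulk RNA, fewer cells of a type and less RNA per cell cannot be told apart.

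None of the alveolar type 1 genes passed the test between artemisinin and model mice. Of the 10 members, 0 were called higher and 0 lower by edgeR's quasi-likelihood test with an adjusted p under 0.05 (Benjamini-Hochberg over all genes), where 4.47% of the 15242 genes tested were called in either direction (2.17% higher and 2.30% lower). At an unadjusted p under 0.05 the count was also 0 of 10, against 24.7% of all genes, and DESeq2, limma-voom and limma on FPKM each called 0 members. In every member the artemisinin and model values overlapped, whereas the groups did not overlap in 33.8% of the genes tested (artemisinin higher in 15.8% and lower in 18%). The members' log2 fold changes, artemisinin over model, ran from −0.40 (Emp2) to 0.37 (Hopx), with a median of −0.08 beside 0.04 for all genes tested. Without artemisinin replicate 1, 2 or 3 that median was 0.02, −0.35 or 0.03, and without model replicate 1, 2 or 3 it was −0.23, −0.08 or −0.02. A p that misses the threshold does not show that levels were equal: the 95% intervals reached down to −1.22 (Aqp5) and up to 1.05 (Hopx) on the log2 scale.

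**Figure D1:**
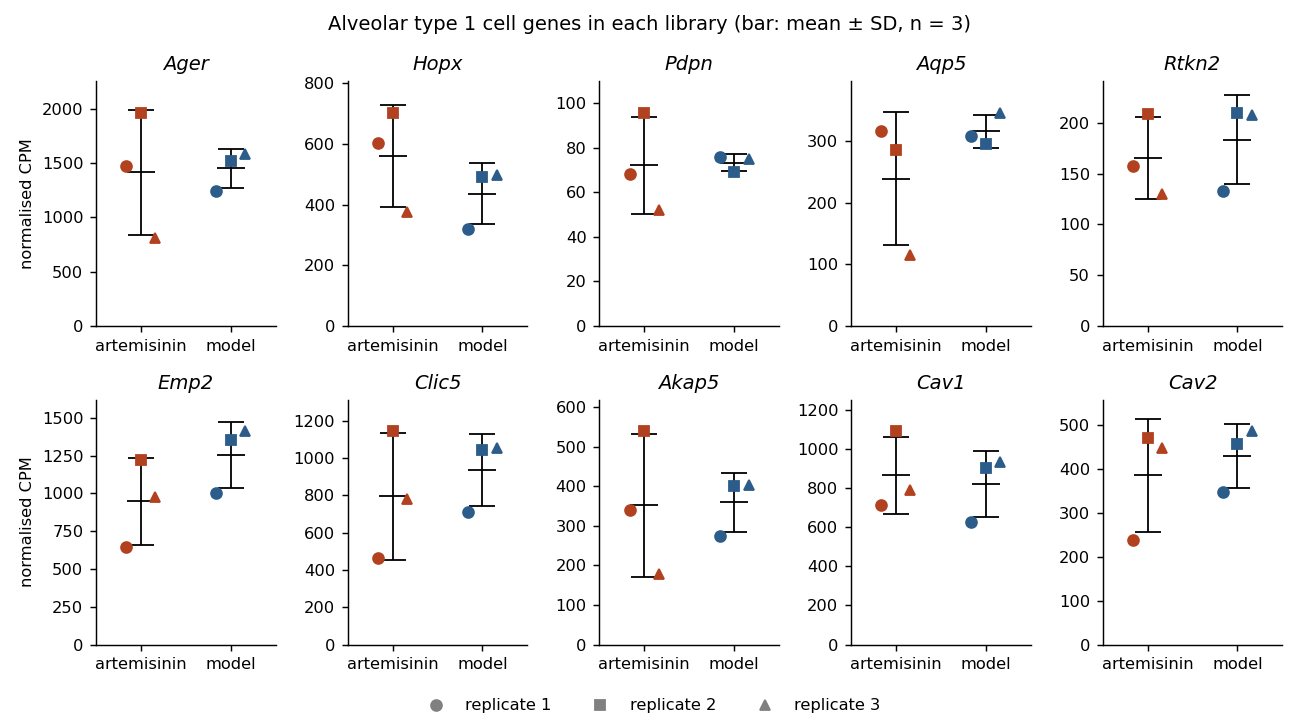
Normalised CPM of the 10 alveolar type 1 genes in each library, with artemisinin in red and model in blue, marker shapes for replicates, and bars for the mean and SD of 3 libraries. The groups overlap in every gene, and for Aqp5 the artemisinin values span 115 to 317, against 294 to 345 normalised CPM in the model.

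The levels of these genes differed widely per unit of length. On the deposited FPKM scale, Ager was the most abundant member in all 6 libraries, with 937, 1179 and 516 FPKM in the artemisinin libraries and 708, 899 and 913 in the model libraries. It ranked between 19th and 83rd of all genes by FPKM. Its lowest library stood above the highest library of Hopx, the next in order. Hopx, Emp2 and Cav1 followed with means over 6 libraries of 326, 318 and 285 FPKM, and their order was not stable: Hopx exceeded Emp2 in 2 of 6 libraries and Emp2 exceeded Cav1 in 4 of 6. Aqp5, Clic5 and Cav2 averaged 178, 128 and 121 FPKM with overlapping ranges. Akap5 and Pdpn averaged 51.9 and 39.4 FPKM and also overlapped. Rtkn2 was the lowest, at 14.5 to 24.0 FPKM, below every library of Pdpn.

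Among the surface molecules, Ager encodes RAGE, an immunoglobulin-family receptor that lines the basal membrane of type 1 cells (chromosome 17, 34597460 to 34600937, GRCm38.p6). It had 1474, 1962 and 814 normalised CPM in artemisinin replicates 1, 2 and 3, against 1243, 1524 and 1585 in model replicates 1, 2 and 3. Artemisinin replicates 2 and 3 were the highest and the lowest of all libraries, so the model values lay within the artemisinin range. The artemisinin mean was 1417 ± 576 and the model mean 1451 ± 182 (SD, n = 3 each), and edgeR gave log2 −0.03 ± 0.33 (SE; adjusted p = 0.967). Pdpn encodes podoplanin, a mucin-type glycoprotein that binds the platelet receptor CLEC-2 (chromosome 4, 143267409 to 143299564). Its values were 68.4, 95.6 and 52.2 normalised CPM with artemisinin and 75.8, 69.1 and 75.0 in the model. Here too the artemisinin libraries spanned both sides of a narrow model range (log2 −0.02 ± 0.22, SE; edgeR adjusted p = 0.968). Emp2 encodes a tetraspan membrane protein of the PMP22 family (chromosome 16, 10281749 to 10313968). It had 644, 1221 and 979.6 normalised CPM with artemisinin and 1003.5, 1353 and 1410.5 in the model, with artemisinin replicate 1 the lowest (log2 −0.40 ± 0.28, SE; edgeR adjusted p = 0.413), and the estimate was −0.18 without it.

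The transport genes were Aqp5, the water channel of the apical membrane (chromosome 15, 99591028 to 99594829), and Clic5, a chloride intracellular channel family protein tied to the cortical actin network (chromosome 17, 44134762 to 44280169). Aqp5 had 317, 285 and 115 normalised CPM with artemisinin, against 308, 294 and 345 in the model. A single artemisinin library, replicate 3, stood well below the other 5, and the estimate of log2 −0.39 ± 0.35 (SE; edgeR adjusted p = 0.508) became −0.10 without it. Clic5 had 462, 1142 and 778 normalised CPM with artemisinin, against 712, 1042 and 1051 in the model. Its low artemisinin library was replicate 1, and the estimate of log2 −0.23 ± 0.35 (SE; edgeR adjusted p = 0.706) was 0.05 without it.

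Akap5, Rtkn2 and Hopx act inside the cell. Akap5 encodes a scaffold that holds protein kinase A and calcineurin near the membrane (chromosome 12, 76324617 to 76334517). It had 340.0, 539 and 178 normalised CPM with artemisinin, against 274, 400.5 and 404 in the model, and so followed Ager in having its highest and lowest library in artemisinin replicates 2 and 3 (log2 −0.02 ± 0.39, SE; edgeR adjusted p = 0.979). Rtkn2 (chromosome 10, 67979566 to 68058429) had 158, 209 and 129.9 normalised CPM with artemisinin, against 133, 209.8 and 208 in the model, nearly the same range in both groups (log2 −0.14 ± 0.25, SE; edgeR adjusted p = 0.743). Hopx, an atypical homeodomain protein that does not bind DNA itself (chromosome 5, 77086986 to 77115123), had 602, 702 and 375 normalised CPM with artemisinin, against 319, 491 and 497 in the model. Artemisinin replicates 1 and 2 were above every model library and replicate 3 was not. Its estimate was the largest positive one of the members and was not called (log2 0.37 ± 0.29, SE; edgeR adjusted p = 0.453), nor was it without artemisinin replicate 3 (log2 0.55; edgeR adjusted p = 0.233).

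Cav1 and Cav2 are neighbours on chromosome 6 (17306335 to 17341328 and 17281185 to 17289130) and encode the caveolins that coat caveolae outside striated muscle. Cav1 had 715, 1092 and 794 normalised CPM with artemisinin, against 627, 904 and 936 in the model. Cav2 had 237, 469.6 and 448 with artemisinin, against 347, 455 and 484 in the model. The pair were unevenly placed in artemisinin replicate 1, where Cav2 was at its lowest of the 6 libraries and Cav1 was not. The ratio of Cav1 to Cav2 on the FPKM scale was accordingly 3.41, 2.63 and 2.01 in the artemisinin libraries and 2.04, 2.25 and 2.18 in the model libraries, with an exact two-sided permutation p of 0.4, where 0.1 is the smallest that 3 against 3 allows. Their log2 fold changes were 0.08 ± 0.25 for Cav1 and −0.15 ± 0.29 for Cav2 (SE; edgeR adjusted p = 0.854 and 0.767). Genes annotated by GENCODE M21 on the opposite strand span parts of Cav1, Cav2, Hopx and Rtkn2, were not analysed here, and could have added reads if the counting ignored strand.

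Relative to the mean, the spread of normalised CPM was larger among artemisinin libraries than among model libraries for all 10 members, by little for Rtkn2 and Cav1, a difference that was not tested. On the FPKM scale the order was the other way for these 2, at 21.1% with artemisinin and 25.1% in the model for Rtkn2 and at 19.6% and 21.7% for Cav1, and the SD of Rtkn2 was also smaller with artemisinin on the CPM scale, at 39.9 and 43.8. The coefficient of variation of normalised CPM was 22.9% (Cav1) to 51.4% (Akap5) with artemisinin and 5.01% (Pdpn) to 23.9% (Rtkn2) in the model. Over all genes the biological coefficient of variation was likewise larger among artemisinin libraries, at 0.389, than among model libraries, at 0.211. The lowest artemisinin library was not the same for every member. Within the artemisinin group, Ager, Hopx, Pdpn, Aqp5, Rtkn2 and Akap5 were lowest in replicate 3, while Emp2, Clic5, Cav1 and Cav2 were lowest in replicate 1. In 9 of the 10, all but Aqp5, replicate 2 was the highest of the artemisinin libraries. In the model group 8 members were lowest in replicate 1, the exceptions being Pdpn and Aqp5.

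Emp2, Clic5, Cav1 and Cav2, whose lowest artemisinin library was replicate 1, are among the members also expressed by endothelium. Relative to the model mean, Emp2, Clic5, Cav1 and Cav2 were at log2 −0.95, −0.99, −0.18 and −0.84 in that library. Rtkn2 was at log2 −0.19 there, no higher than Cav1, and Cav1 was above model replicate 1, at 715 and 627 normalised CPM. In artemisinin replicate 3 Emp2, Clic5, Cav1 and Cav2 were at log2 −0.34, −0.24, −0.03 and 0.08. The 12 capillary endothelium markers, which include Pecam1 and Cdh5, summed to 1724, 2541 and 3985 normalised CPM in artemisinin replicates 1, 2 and 3, against 2043, 3338 and 3403 in the model libraries. This sum was thus lowest in artemisinin replicate 1 and highest in artemisinin replicate 3, as was the median relative to the model mean, at log2 −0.83 and 0.33. Not every marker followed the sum. Car4, Ednrb, Tek, Tie1, Aplnr, Plvap and Apln were highest in a model library, and Gpihbp1, Cldn5 and Tie1 were lowest in model replicate 1. In model replicate 1 the median of the 12 markers was log2 −0.48. Emp2, Clic5, Cav1 and Cav2 were there at log2 −0.31, −0.37, −0.37 and −0.29. Hopx, Rtkn2 and Akap5 were at log2 −0.42, −0.43 and −0.37, and Ager, Pdpn and Aqp5 at log2 −0.21, 0.05 and −0.03. Of the 12 markers, 0 were called over all genes by edgeR and 1 had an unadjusted p under 0.05, beside 4.47% and 24.7% of all genes tested. The median log2 fold change of the 12 was −0.19. DESeq2 called 1 of the 12, and 2286 of the 15242 genes tested, and limma-voom and limma on FPKM called 0 of the 12. The ratio of Ager to Pecam1 on the FPKM scale was 8.86, 7.23 and 1.80 in the artemisinin libraries and 5.80, 4.30 and 4.57 in the model libraries, with an exact two-sided permutation p of 1. Artemisinin replicates 1 and 3 lay on opposite sides of the model range. Artemisinin replicate 1 was also the library with the highest cardiac muscle and adipocyte sums. The part of the endothelium and of these cells in the caveolin, Emp2 and Clic5 values was not tested.

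**Figure D2:**
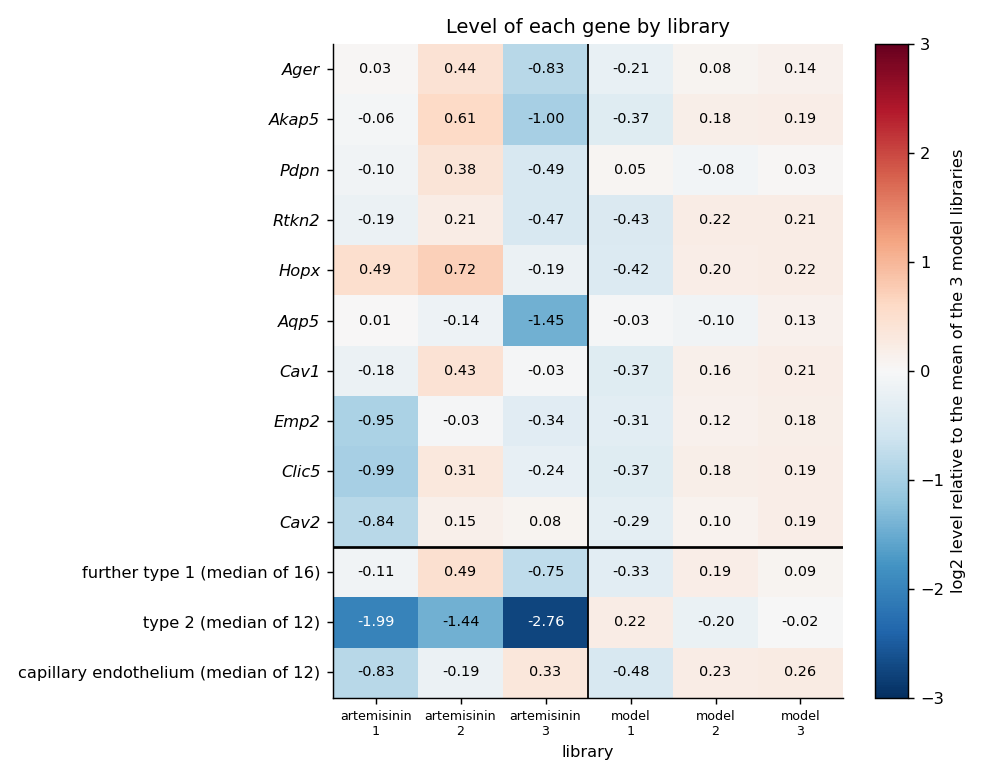
Log2 level of each member, and the median of 3 marker lists, in each library relative to the mean of the 3 model libraries. Artemisinin replicate 3 is lowest for Aqp5 (−1.45) and Ager (−0.83), artemisinin replicate 1 for Clic5 (−0.99), Emp2 (−0.95) and Cav2 (−0.84), and the type 2 median is low in all 3 artemisinin libraries (−1.99, −1.44 and −2.76).

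A further list of 16 genes of type 1 cells gave the same count. It holds secreted and matrix genes such as Vegfa, Igfbp2, Spock2, Sema3e and the collagen IV genes Col4a3 and Col4a4, and membrane or cytoskeletal genes such as Cldn18, Gprc5a, Lmo7 and Krt7. By edgeR 0 of 16 were called and 0 had an unadjusted p under 0.05, DESeq2, limma-voom and limma on FPKM also called 0, with 8 estimates above and 8 below 0, a median log2 fold change of 0.0021, and overlapping groups in each. The widest estimate was that of Igfbp2, an insulin-like growth factor binding protein, with 265, 266 and 37.5 normalised CPM with artemisinin, against 38.8, 133 and 81.7 in the model (log2 1.17 ± 0.72, SE; edgeR adjusted p = 0.347). The lowest was that of Cldn18, a claudin of alveolar tight junctions also made by type 2 cells, with 483, 726 and 250.3 normalised CPM with artemisinin, against 753, 717 and 804 in the model (log2 −0.63 ± 0.36, SE; edgeR adjusted p = 0.314). As for the members, artemisinin replicate 3 had the lowest median of the 6 libraries, at −0.75 on the log2 scale relative to the model mean, while replicate 2 had the highest, at 0.49.

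The type 2 genes of the same libraries were called more often, a difference between the lists that was not tested. Of 12 type 2 markers, 7 were called lower and 0 higher by edgeR, with a median log2 fold change of −1.96, beside 2.30% of all genes called lower. DESeq2 called all 12, and 2286 of the 15242 genes tested. The count of 7 was 0 without model replicate 1 or 3, 1 without artemisinin replicate 1, 2 without model replicate 2, 10 without artemisinin replicate 2 and 8 without artemisinin replicate 3. Sftpb, which encodes surfactant protein B, fell to 1643, 2134 and 950.0 normalised CPM with artemisinin, against 10611, 6980 and 7306 in the model (log2 −2.39 ± 0.38, SE; edgeR adjusted p = 0.0245). This call was lost without artemisinin replicate 1 and without any 1 model replicate. Sftpc, the surfactant protein C gene, was not called (log2 −1.80 ± 0.54, SE; edgeR adjusted p = 0.104), although its groups did not overlap. The ratio of Ager to Sftpc on the FPKM scale was 0.0724, 0.0863 and 0.132 in the artemisinin libraries and 0.0171, 0.0342 and 0.0284 in the model libraries. Each artemisinin library was above each model library, by 3.68-fold between the group means on the log2 scale, with an exact two-sided permutation p of 0.1, the smallest that 3 against 3 allows. That pair of genes was chosen with earlier results of these data known.

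**Figure D3:**
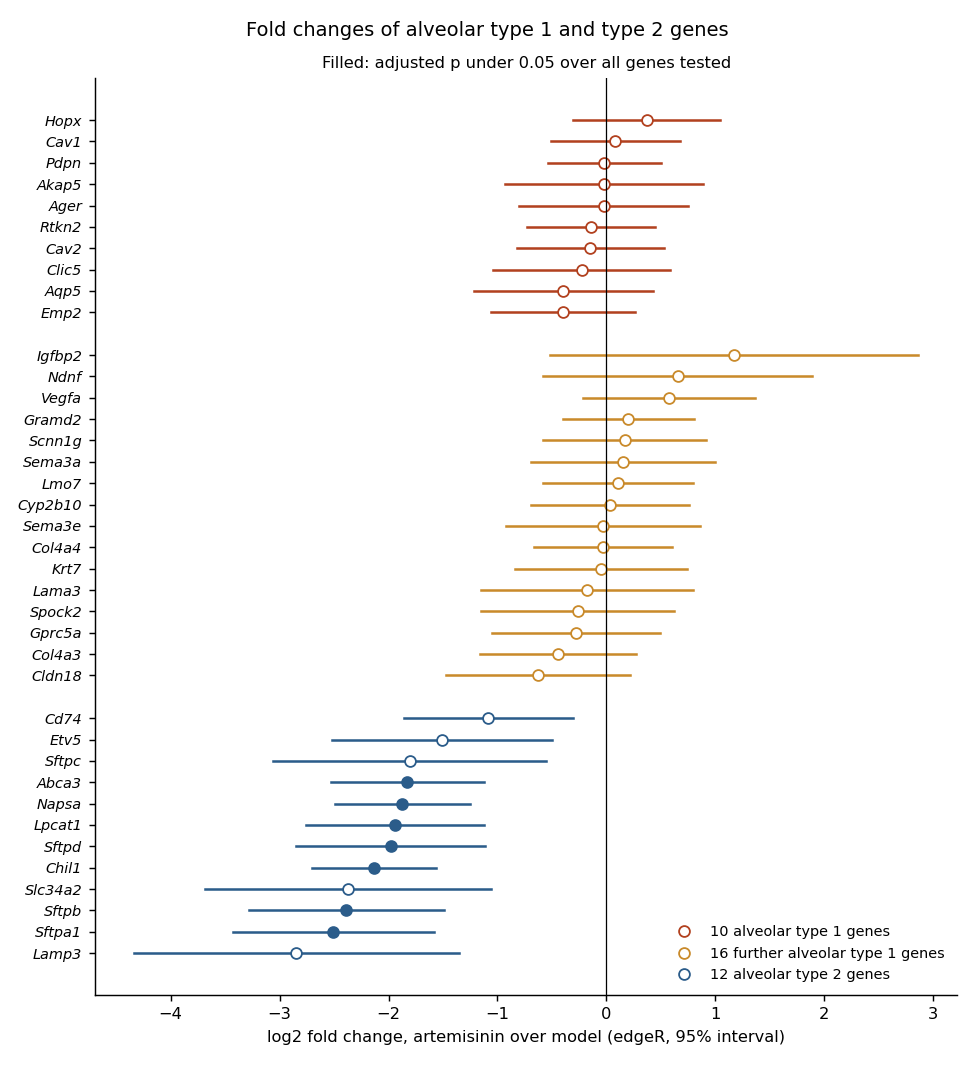
Log2 fold changes, artemisinin over model, with 95% intervals from edgeR for the 10 type 1 genes, 16 further type 1 genes and 12 type 2 genes, where filled points passed an adjusted p under 0.05 over all genes. Each type 1 interval includes 0, and the 12 type 2 intervals lie below it, with 7 genes called.

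**Figure D4:**
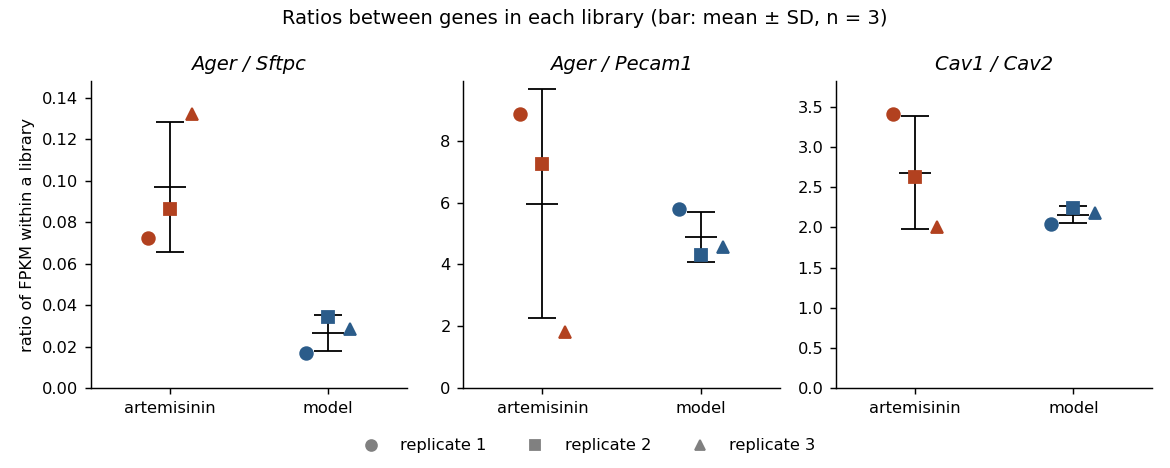
Ratios of FPKM between genes within each library, with bars for the mean and SD of 3 libraries. The Ager to Sftpc ratio is higher in each artemisinin library (0.0724 to 0.132) than in each model library (0.0171 to 0.0342), and the ratios of Ager to Pecam1 and of Cav1 to Cav2 overlap between the groups.

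Regulators of the type 1 programme were measured beside their targets. Of 8 factors (Nkx2-1, Klf5, Yap1, Wwtr1, Tead1, Tead4, Gata6 and Foxa2), 1 was called lower and 0 higher, beside 2.30% and 2.17% of all genes tested. Each of the 8 estimates was negative, as were those of 7138 of the 15242 genes tested. The median of the 8 was −0.49 on the log2 scale. DESeq2 called 3 of the 8, and 2286 of the 15242 genes tested. Gata6, a zinc finger factor of alveolar epithelium that is also expressed in endothelium and smooth muscle, fell to 34.0, 37.2 and 27.2 normalised CPM with artemisinin, against 69.0, 52.7 and 60.5 in the model (log2 −0.88 ± 0.17, SE; edgeR adjusted p = 0.0378). Gata6 was among 3 of the 8 with separate groups, where 33.8% of all genes tested had separate groups. Its call was kept in only 1 of 6 fits that left out a library. In that fit, without artemisinin replicate 2, 2 of the 8 were called. Nkx2-1 had 355, 173 and 124 normalised CPM with artemisinin, against 337, 263 and 322 in the model, and the groups overlapped (log2 −0.50 ± 0.37, SE; edgeR adjusted p = 0.431). Its estimate was −1.04 without artemisinin replicate 1, again uncalled. Among 8 targets of YAP and TAZ, such as Ccn1 and Ccn2, 0 were called by edgeR, limma-voom and limma on FPKM, and 2 by DESeq2. In edgeR 2 of the 8 targets had an unadjusted p under 0.05, beside 24.7% of all genes tested. The median log2 fold change of the 8 targets was 0.07.

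Genes of the passage from type 2 to type 1 cells were mixed in direction. Of 11, 2 were called higher and 1 lower, beside 2.17% and 2.30% of all genes tested, and the median log2 fold change was −0.01. Lgals3, the galectin-3 gene that macrophages also express strongly, rose to 335, 368 and 311 normalised CPM with artemisinin, against 192, 182 and 207 in the model (edgeR adjusted p = 0.0326). Ndrg1, a stress and hypoxia responsive gene, rose to 45.2, 47.6 and 47.6 with artemisinin, against 29.7, 24.4 and 26.6 in the model (edgeR adjusted p = 0.0252). Areg, which encodes the EGF receptor ligand amphiregulin, fell to 3.88, 5.01 and 1.95 with artemisinin, against 19.1, 12.04 and 10.4 in the model (edgeR adjusted p = 0.0478). The groups were separate in these 3 of the 11, where 33.8% of all genes tested had separate groups. None of the 3 kept its call when any 1 model replicate or artemisinin replicate 3 was left out. Areg also lost its call without artemisinin replicate 1. Krt8, the keratin most used to mark transitional cells, was not called (228, 180.0 and 109 normalised CPM with artemisinin, against 278, 227 and 201 in the model; edgeR adjusted p = 0.357).

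Molecular partners and relatives of the members were called in the RAGE and PMP22 lists, where 4.47% of all genes tested were called. Of 8 genes for ligands and signalling, 3 were called higher and 0 lower, with a median log2 fold change of 0.59. S100a4 rose to 103, 76.6 and 78.6 normalised CPM with artemisinin, against 19.1, 19.5 and 13.6 in the model (log2 2.31 ± 0.20, SE; edgeR adjusted p = 0.00645), and kept its call with any library left out except model replicate 1. S100a8 and S100a9, the calprotectin genes of neutrophils, also rose, with artemisinin replicate 3 far above the others at 1492 and 1898 normalised CPM. Without that library their log2 fold changes were 3.10 and 2.90, beside 4.66 and 4.17 with it, and they lost their calls without any 1 model replicate. The ligand genes Hmgb1, S100b and S100a1 and the signalling genes Diaph1 and Myd88 were not called.

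In the PMP22 family 1 of 4 genes was called. Emp3 rose to 80.3, 67.5 and 75.6 normalised CPM with artemisinin, against 33.2, 32.4 and 30.2 in the model (log2 1.23 ± 0.13, SE; edgeR adjusted p = 0.00984; not called without model replicate 1 or 3). Its paralogs Emp1, Emp2 and Pmp22 were not called. The difference between Emp3 and Emp2 was not itself tested. Of 8 caveola partner genes 0 were called by edgeR, limma-voom and limma on FPKM. DESeq2 called 3 of them, and 2286 of the 15242 genes tested, and edgeR called 2 without artemisinin replicate 3. In edgeR 4 of the 8 had an unadjusted p under 0.05, beside 24.7% of all genes tested. Among these 4 was Cavin1, the cavin that caveolae require. It had 563, 584 and 499.5 normalised CPM with artemisinin, against 309.9, 436 and 414 in the model (log2 0.51 ± 0.19, SE; edgeR adjusted p = 0.162). The muscle caveola genes Cav3 and Cavin4 were highest in artemisinin replicate 2, at 14.9 and 18.1 normalised CPM, the library with skeletal muscle transcripts. By edgeR 0 genes were called among 6 podoplanin partners, 4 lung aquaporins, 5 CLIC genes and 8 partners of the AKAP5 scaffold. In these lists 1, 0, 0 and 3 genes had an unadjusted p under 0.05, beside 24.7% of all genes tested. DESeq2 called 1 podoplanin partner and 2 partners of the scaffold, limma-voom called 1 of the scaffold partners, edgeR without artemisinin replicate 2 called 2 of them, and limma on FPKM called 0 in these 4 lists.

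Markers of other cells were summed in each library. Apart from the lymphatic markers, the sums of these lists were higher in each artemisinin library than in each model library, and several were far higher in 1 artemisinin library than in the others. Single genes carried some of these sums. In artemisinin replicate 2, Fabp4 had 55.5 normalised CPM of the adipocyte sum of 70.6, and Actc1 had 203 of the cardiac sum of 255. In that library the medians of the tested adipocyte and cardiac markers lay below the model mean, at log2 −0.17 and −0.40. Ltf had 378 normalised CPM of the gland sum of 386 in artemisinin replicate 3. Of all genes tested, 2.17% were called higher by edgeR and 24.7% had an unadjusted p under 0.05, and DESeq2 called 2286 of 15242. The 6 lymphatic endothelium markers summed to 202, 353 and 194 normalised CPM with artemisinin, against 181, 342 and 279 in the model, with 0 called by edgeR, DESeq2, limma-voom or limma on FPKM and 0 at an unadjusted p under 0.05. The 6 adipocyte markers, of which 5 were tested and 0 called by edgeR (4 at an unadjusted p under 0.05, and 4 called by DESeq2), summed to 403, 70.6 and 69.0 with artemisinin, against 31.1, 49.5 and 43.2 in the model. Contractile smooth muscle markers summed to 1050 to 1860 with artemisinin and 269.5 to 417 in the model, and 7 of 8 were called higher, against 0 of 8 without model replicate 1 or 3 and 3 of 8 without artemisinin replicate 1 or model replicate 2. Fibroblast and pericyte markers summed to 1322 to 2101 with artemisinin and 1019 to 1215 in the model, with 1 of 8 called higher, and with 0 called when artemisinin replicate 1 or 3 or any 1 model replicate was left out and 2 without artemisinin replicate 2. Cardiac muscle markers summed to 1144, 255 and 304 with artemisinin, against 107 to 155 in the model, with 1 of 6 called higher, 4 without artemisinin replicate 2 and 0 without any 1 model replicate. The 8 basal and squamous epithelium markers summed to 12.3, 336 and 4.35 normalised CPM with artemisinin, against 2.69 to 3.59 in the model, and the 6 skeletal muscle markers to 56.3, 5059 and 11.4, against 4.22 to 5.06, and 4 genes of each list were tested. By edgeR 0 of these were called, 4 of 4 in each list had an unadjusted p under 0.05, and DESeq2 called 2 of the basal and 0 of the muscle genes. Krt14 and Dsg3 had 0 counts in each model library. Among 5 gland markers found, 2 were tested and 1, the neutrophil and gland gene Ltf, was called higher, though not without any 1 model replicate. Without artemisinin replicate 2, 3 adipocyte and 2 skeletal muscle markers were called, and 1 skeletal muscle marker was called without artemisinin replicate 3. The part of these cells in the values of Cav1, Cav2, Pdpn and Aqp5 was not tested.

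The profile of Ager over the 6 libraries was compared with that of 11099 tested genes averaging 10 CPM or more. Likeness was the root mean square difference of log2 normalised CPM centred on each gene. Outside the members the nearest were Sulf1 (0.079), Flrt3 (0.097), Phka1 (0.102), Myh14 (0.107) and Rnd1 (0.109). Among the members Akap5 was nearest (0.128), followed by Pdpn (0.199) and Rtkn2 (0.223), and Clic5 and Cav2 were farthest (0.481 and 0.526). Sulf1, which encodes an extracellular heparan sulfatase, had 30.8, 47.3 and 18.8 normalised CPM with artemisinin, against 26.9, 34.3 and 32.8 in the model. Sulf1 was picked for its likeness to Ager over these same libraries. That it too was highest in artemisinin replicate 2 and lowest in artemisinin replicate 3 is therefore no separate result.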

How the data were processed

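Per the labels' protocols, the mirVana kit was used for RNA and TruSeq Stranded mRNA for the libraries. The genome build was GRCm38 (mm10), per the submitters' processing notes. For aligner, counter, annotation and strand setting, the sources used here give nothing. As for values, the authors deposited raw read counts per gene and FPKM, which are the same counts scaled by library total and gene length (largest relative gap 5.3e-07 over 15462 genes) and therefore add no evidence of their own. Both tables hold 18238 genes and 6 libraries, each mapped to its group and number by the sample title. The series' design text calls the samples mice, and each library was taken as 1 mouse.

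Counts were tested on the whole table with edgeR 4.0.16 in R 4.3.3: filterByExpr (15242 genes, all 10 members among them), TMM (factors 0.948 to 1.06), glmQLFit with robust estimation, glmQLFTest, and Benjamini-Hochberg adjustment at 0.05. A standard error is the log2 fold change over the square root of F. FPKM were tested with limma 3.58.1 on log2(FPKM + 0.1) or log2(FPKM + 1), keeping genes that averaged 0.5 FPKM or more. That scale understates changes of low genes. DESeq2 1.42.0, limma-voom (here always with sample quality weights), other scalings, no low-count filter, the replicate block and each library left out were alternatives. In simulated counts of this comparison edgeR recovered 26% of 2-fold and 75.8% of 4-fold changes over 15114 genes, with 9.82% of its calls false. That share of false calls was above the threshold of 0.05. The simulation gave both groups the same dispersion per gene, whereas the biological coefficient of variation was 0.389 with artemisinin and 0.211 in the model.

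Named genes were the 10 members, at most 4 called genes of each other list, a short set named whatever its result (Sftpc, Sftpb, Pecam1, Cavin1, Nkx2-1, Krt8, Acta1 and Krt5), and the 5 genes nearest to Ager. Other genes named for their values, such as Igfbp2 and Cldn18, were chosen after the values were seen. The members and lists were chosen with earlier results of these data known. Counting error is small at these depths, and the number of mice limits precision. The result of 1 gene list is not reported here.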

Additional observations from a re-analysis of the deposited data

How the results depend on the processing

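Each of the 10 members stayed uncalled in all 15 alternative settings, and the members' median log2 fold change ran from −0.35 to 0.03. The signs of small estimates did not hold. With library totals alone Ager, Pdpn, Akap5 and Pecam1 stood at 0.0711, 0.0838, 0.0716 and 0.0706, a scaling that moved the median of all genes to 0.15, beside 0.04. With limma-voom and sample quality weights Cav1 and Pecam1 were at −0.0131 and 0.0140. On log2(FPKM + 0.1), with and without a filter, and on log2(FPKM + 1), Pdpn was at 0.0399, 0.0399 and 0.0398. With 1 library left out the log2 fold changes ranged from −0.34 to 0.21 for Ager, −0.28 to 0.13 for Pdpn, −0.48 to 0.26 for Akap5, −0.13 to 0.21 for Cav1, −0.33 to 0.11 for Cav2, −0.59 to 0.0486 for Clic5 and −0.51 to 0.25 for Pecam1, and Hopx, Aqp5, Rtkn2 and Emp2 kept their sign. The causes were not tested.

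The background of 682 called genes was less stable: DESeq2 called 2286, limma-voom with quality weights 1121, and fits without 1 library between 17 and 1383, each with fewer mice. Library totals alone gave 464 higher against 319 lower, beside 331 against 351. With the replicate number as a block 128 genes were called and 0 members. Same-numbered libraries of the groups did not deviate together (correlations of −0.0039, −0.103 and 0.030 over genes), so the numbers were not taken to pair the mice.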
